A study of Mus musculus with 384 samples.

Results

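The 8 genes described here encode proteins of the specific (secondary) granules of neutrophils and of the membranes of those granules. They are Camp, Ngp, Ltf, Lcn2, Chi3l3, Cd177, Itgb2l and Mmp8, chosen by name, and all 8 have a row among the 23420 genes of the expression table. The cells came from the spinal cords of mice that all carried the same label, Optn KO, a knockout of optineurin, an adaptor of autophagy and of inflammatory signalling. Control cells with intact Optn were not analysed here, and nothing below is an effect of the knockout. Cells stained for CD45, CD11b and CX3CR1 were sorted singly into 4 plates and converted to cDNA with SmartSeq2, a full-length method without molecular identifiers. Plates 1 and 2 are replicate 1 and plates 3 and 4 are replicate 2. The labels do not say whether the replicates are separate mice, and their spread (n = 2) may therefore be technical only.

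Neutrophils fill their granules in sequence while they mature in the bone marrow. Azurophil granules with myeloperoxidase and elastase come first, in promyelocytes. Specific granules with lactoferrin, lipocalin 2 and the cathelicidin precursor follow in myelocytes and metamyelocytes, and gelatinase granules with Mmp9 come last. Transcription of specific granule genes depends on the factor C/EBP epsilon, and their transcripts decline as the cell leaves the marrow and circulates.

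Of the 384 labelled cells, 326 have a column in the table. S100a8 and S100a9, the most abundant cytosolic protein genes of neutrophils, marked 286 of them as neutrophils by a sum of at least 10000 TPM (an abundance corrected for transcript length and scaled to the same total in every cell). Replicate 1 held 131 neutrophils and replicate 2 held 155. The highest sum among the other 40 cells was 4019 TPM and the lowest among the neutrophils was 12512 TPM. All 286 neutrophils had at least 3 of the 9 neutrophil markers found in the table above 0. S100a8 and S100a9, which set the class, are among these 9. At least 3 of the 9 were also above 0 in 26 of the other 40 cells. Conversely, 17 neutrophils had at least 3 of 10 monocyte markers above 0. The series title calls the sorted cells microglia, but 0 of the 326 cells had 3 or more of 13 microglia markers above 0. In the other 40 cells the summed monocyte markers had a median of 13549 TPM, against 1897 TPM in neutrophils. Neutrophils had a median of 1604.5 genes above 0 and the other cells 3027.5. The table keeps no sequencing depth, so a value of 0 may be a missed transcript and is called listed at 0.

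The start regions of 5 of the genes are shown because they span what was found in the 8. Ngp had 3 matches to TTGNNCAA, a loose pattern for C/EBP sites, Ltf, Lcn2 and Mmp8 had 1 each, and Camp had none. Each sequence runs 5′ to 3′ on the strand of the gene, from 250 bases before to 50 bases after the annotated start (RefSeq, GRCm38.p6). Capitals mark TTGNNCAA and GAGGAA or its reverse complement TTCCTC, a core of the type bound by ETS factors such as PU.1. As a pattern, TTGNNCAA reads the same on both strands. N is any base, so a single match need not be a palindrome or a full C/EBP site. The windows are chr9:110419558-110419857 on the plus strand for Ngp, chr9:111019042-111019341 on the plus strand for Ltf, chr2:32387690-32387989 on the minus strand for Lcn2, chr9:7558179-7558478 on the plus strand for Mmp8 and chr9:109849407-109849706 on the minus strand for Camp.
Ngp: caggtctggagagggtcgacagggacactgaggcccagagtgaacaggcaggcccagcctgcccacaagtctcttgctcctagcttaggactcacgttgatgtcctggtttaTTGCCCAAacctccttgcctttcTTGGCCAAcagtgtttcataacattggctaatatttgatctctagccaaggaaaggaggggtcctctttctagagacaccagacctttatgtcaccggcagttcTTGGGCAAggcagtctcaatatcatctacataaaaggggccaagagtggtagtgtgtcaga
Ltf: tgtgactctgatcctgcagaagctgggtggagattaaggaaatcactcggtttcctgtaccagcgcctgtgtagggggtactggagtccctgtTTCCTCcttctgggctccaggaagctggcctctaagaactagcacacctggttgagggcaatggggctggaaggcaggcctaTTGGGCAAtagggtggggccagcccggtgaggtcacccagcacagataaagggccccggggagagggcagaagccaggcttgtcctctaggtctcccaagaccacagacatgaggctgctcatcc
Lcn2: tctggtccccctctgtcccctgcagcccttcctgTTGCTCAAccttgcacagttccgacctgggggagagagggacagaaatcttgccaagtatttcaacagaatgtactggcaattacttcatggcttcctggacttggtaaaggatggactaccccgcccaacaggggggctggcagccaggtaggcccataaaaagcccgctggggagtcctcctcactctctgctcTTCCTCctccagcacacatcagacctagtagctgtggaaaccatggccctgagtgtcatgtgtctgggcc
Mmp8: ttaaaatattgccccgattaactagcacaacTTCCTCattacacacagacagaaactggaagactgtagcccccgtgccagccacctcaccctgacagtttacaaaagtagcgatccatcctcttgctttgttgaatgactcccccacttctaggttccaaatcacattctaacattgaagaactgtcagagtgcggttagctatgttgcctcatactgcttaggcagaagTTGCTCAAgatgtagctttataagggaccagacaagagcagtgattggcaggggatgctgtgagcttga
Camp: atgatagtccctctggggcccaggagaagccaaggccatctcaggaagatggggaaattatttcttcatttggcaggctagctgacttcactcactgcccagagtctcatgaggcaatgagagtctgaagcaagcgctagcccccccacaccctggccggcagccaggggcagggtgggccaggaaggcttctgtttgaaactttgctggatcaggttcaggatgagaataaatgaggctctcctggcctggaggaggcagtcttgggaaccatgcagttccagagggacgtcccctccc
All 8 genes had an entry, Chi3l3 under its present symbol Chil3. TTGNNCAA occurred in 4 of the 8 windows, and in 6.40% of 32851 mouse windows of the same length. GAGGAA occurred on either strand in 5 of the 8, namely Ltf, Lcn2, Cd177, Itgb2l and Mmp8, and in 28.3% of all windows. The motifs do not overlap in any of the 8. A match is a run of letters and not a measured binding site, and no binding was measured in these cells. In the GRCm38 annotation (GENCODE M21), Camp, Ngp and Ltf lie within 1.2 Mb of chromosome 9, from 109847379 to 111042767. Mmp8 is on the same chromosome, from 7558456 to 7568485, far from these 3 genes, and the remaining genes are on chromosomes 2 (Lcn2), 3 (Chi3l3), 7 (Cd177) and 16 (Itgb2l).

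Among the soluble antimicrobial proteins, Ngp was the most abundant transcript. Ngp, a granule protein related to cystatins and cathelicidins, averaged 37172 TPM, 34212 TPM, 39580 TPM and 37385 TPM over the neutrophils of plates 1 to 4. The plates lay close together, and the mean over replicates was 37101 ± 1944 TPM (SD, n = 2), with 245 of 286 neutrophils above 0. Camp, the precursor of the antimicrobial peptide CRAMP, averaged 17073 TPM, 12393 TPM, 14277 TPM and 11449 TPM in the same plates, or 13820 ± 1367 TPM (SD, n = 2). Only 182 neutrophils had Camp above 0, so its mean came from a smaller group of cells at high levels, with a maximum of 83023 TPM. For Camp the plates of replicate 1 lay further apart than the means of the replicates.

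The metal-scavenging proteins came next. Lcn2, which binds bacterial siderophores, averaged 16391 TPM in replicate 1 and 16827 TPM in replicate 2, or 16609 ± 308 TPM (SD, n = 2), and was above 0 in 261 neutrophils, the most of any of the 8. Ltf, the iron-binding protein lactoferrin, averaged 11138 TPM and 11996 TPM, or 11567 ± 607 TPM (SD, n = 2). Ltf was above 0 in 199 neutrophils, but in 53 of these it was under 10 TPM. The same low level was seen in 16 of the 40 other cells, all under 10 TPM, so a trace of Ltf does not set neutrophils apart. At or above 100 TPM, Ltf was present in 144 neutrophils and in 0 other cells, which allows a share of other cells of up to 7.50% (3 cells of the total, counting error only).

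Mmp8, the neutrophil collagenase, averaged 6677 TPM and 7102 TPM in the 2 replicates, or 6889 ± 301 TPM (SD, n = 2), and was above 0 in 246 neutrophils. Chi3l3, the secreted chitinase-like lectin Ym1, averaged 4711 TPM and 5106 TPM, or 4909 ± 279 TPM (SD, n = 2), with 153 neutrophils above 0. Chi3l3 has a close relative, Chi3l4, and reads may have been split between them, so its level is uncertain. Chi3l4 itself was above 0 in 70 neutrophils, with a mean of 1.12 TPM.

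The 2 surface molecules of the group were less abundant. Cd177, a lipid-anchored glycoprotein of the neutrophil surface and of specific granule membranes, averaged 2631 TPM and 3083 TPM, or 2857 ± 320 TPM (SD, n = 2), in 234 positive neutrophils. Itgb2l, a mouse beta integrin-like protein also called pactolus, averaged 552 TPM and 597 TPM, or 575 ± 31.9 TPM (SD, n = 2), in 173 positive neutrophils. The order of mean levels was the same in both replicates, but in replicate 2 Camp (12853 TPM) exceeded Ltf (11996 TPM) by less than the SD of Camp. Single plates overlapped between Lcn2 and Camp and between Camp and Ltf.

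**Figure D1:**
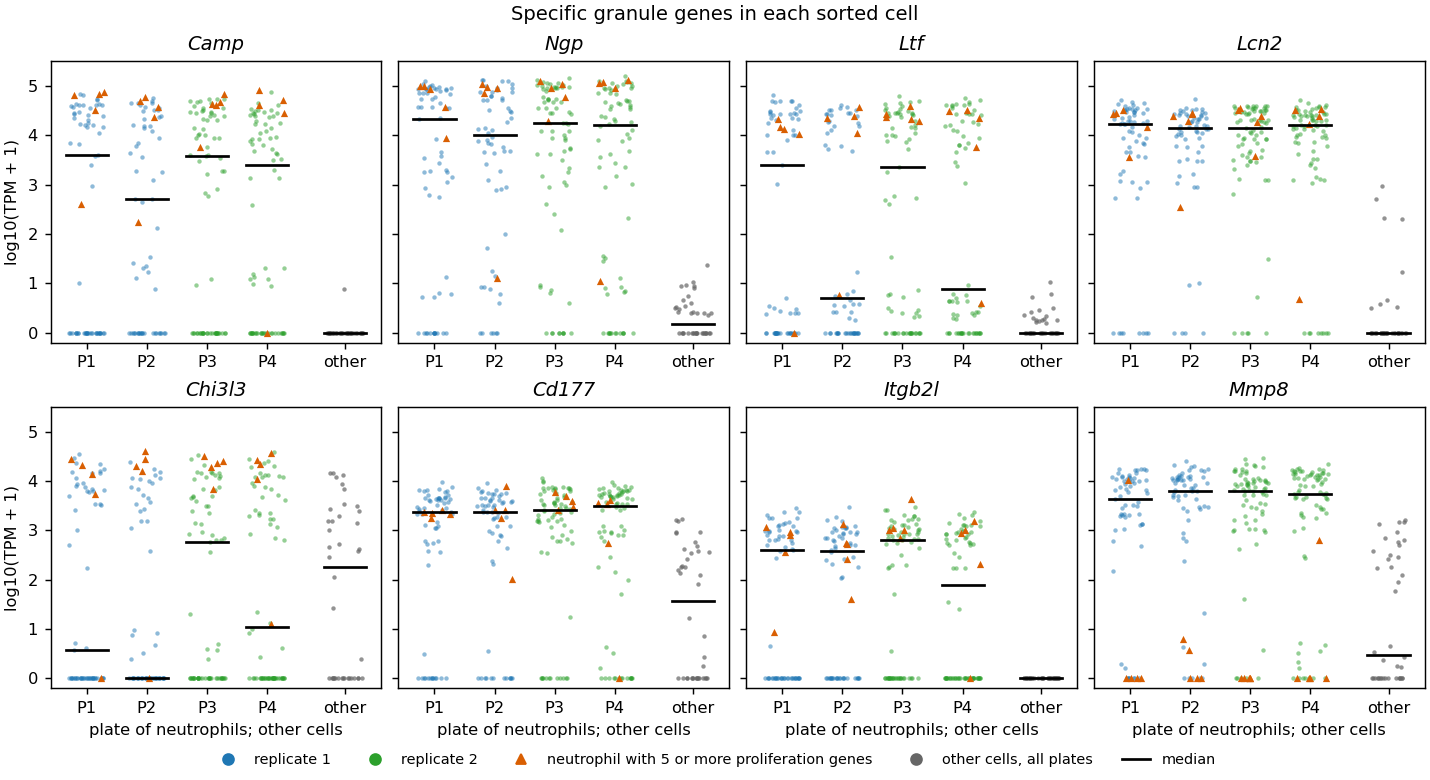
Level of each gene, as log10(TPM + 1), in each neutrophil by plate (P1 to P4, blue for replicate 1 and green for replicate 2) and in the other 40 cells of all plates (grey). Orange triangles are the 20 neutrophils with at least 5 proliferation genes above 0, black bars are medians, and a reader should see split high and low populations for Camp, Ltf and Chi3l3 in every plate, and triangles at the bottom of the Mmp8 panel.

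Together the 8 genes made up a large and very uneven share of the neutrophil transcriptome. They held 9.43% ± 0.242 of a neutrophil's TPM on average (SD, n = 2), but the range over cells was 0% to 28.6%. In 68 neutrophils the 8 genes held under 1% of the TPM, in 106 they held 1% to 10%, and in 112 they held 10% or more, with 65 of these at 20% or more. Plate medians were 6.80%, 3.93%, 5.27% and 5.24%. The spread was wide in all 4 plates, with lower quartiles of 0.923%, 1.22%, 1.40% and 1.18%. The upper quartiles were 20.6%, 15.8%, 20.1% and 17.5%. Of the TPM of the 8 genes, Ngp took 39.3%, Lcn2 17.6%, Camp 14.7%, Ltf 12.3%, Mmp8 7.30%, Chi3l3 5.20%, Cd177 3.03% and Itgb2l 0.609%. Their order changed with the total. Ngp was the largest contributor in 110 of the 112 cells at 10% or more, whereas in the 68 cells under 1% the largest was Mmp8 in 36 and Lcn2 in 23. In the other 40 cells the share had a median of 0.09% and a maximum of 1.57%.

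The transcripts differed in how many neutrophils kept them, where kept and lost mean present or not at a threshold and not a course in time. Lcn2 was kept in the most neutrophils at each threshold tried, while the gene kept in the fewest depended on the threshold. Above 0 TPM, Lcn2 was present in 91.2% ± 0.547 of neutrophils (SD, n = 2), Mmp8 in 86.0% ± 0.676, Ngp in 85.7% ± 0.219, Cd177 in 81.7% ± 1.18, Ltf in 69.3% ± 5.13, Camp in 63.6% ± 1.36, Itgb2l in 60.6% ± 1.75 and Chi3l3 in 53.2% ± 5.06. Mmp8 and Ngp differed by less than 1 SD, and Ltf and Camp differed by a little more than the SD of Ltf. At 100 TPM or more the order was Lcn2 (89.5%), Mmp8 (80.7%), Cd177 (79.0%), Ngp (75.1%), Itgb2l (58.2%), Camp (57.3%), Ltf (50.1%) and Chi3l3 (45.9%). Ltf therefore moved behind Camp and Itgb2l once traces were set aside, and Ngp moved behind Cd177. At 1000 TPM or more Itgb2l, the gene with the lowest mean, was last with 22.2% and Chi3l3 next to last with 41.2%. The order was not that of mean level: Cd177, with a mean of 2857 TPM against 37101 TPM for Ngp, was the one kept in more cells at 100 TPM. Above 0, and at 1000 TPM (70.5% against 66.2%), Ngp was the one kept in more.

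**Figure D2:**
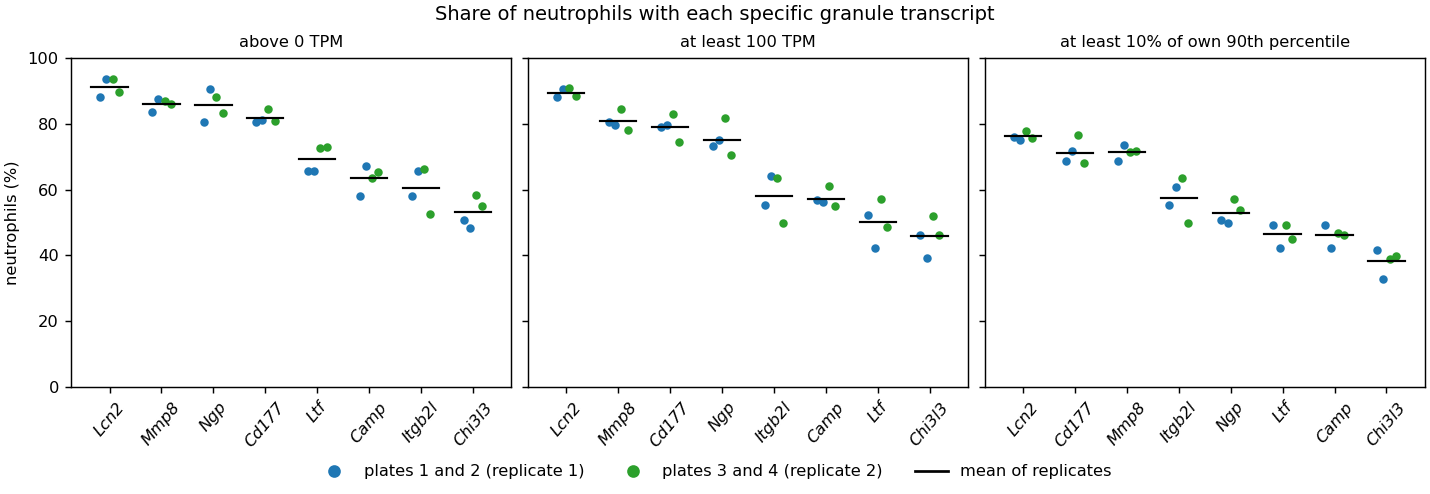
Percentage of neutrophils with each transcript above 0 TPM, at 100 TPM or more, and at 10% or more of the gene's own 90th percentile among neutrophils; points are plates, black lines are means of the 2 replicates. Lcn2 is first and Chi3l3 last in the 3 panels, while Ngp drops from 85.7% to 52.9% when judged against its own level.

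Which gene of a pair was kept more often follows from these shares, so the counts of cells with the reverse are what the pairs add. Lcn2 was above 0 with Camp listed at 0 in 83 neutrophils, and the reverse was seen in 4. Ngp without Camp was seen in 68 and Camp without Ngp in 5, although these 2 genes had the highest correlation of any pair, given further on. Itgb2l was never above 0 without Lcn2, Ngp or Cd177: Lcn2 without Itgb2l was seen in 88 cells, Ngp without Itgb2l in 72, Cd177 without Itgb2l in 61, and each reverse in 0. At 100 TPM or more, 92 neutrophils had Lcn2 without Camp, 112 had Lcn2 without Ltf and 124 had Lcn2 without Chi3l3, and each reverse was seen in 0. In 22 of the 28 pairs above 0, and in 26 of 28 at 100 TPM, all 4 plates had the same member kept more often. The 2 exceptions at 100 TPM were Mmp8 and Cd177 (45 against 40 cells) and Itgb2l and Camp (16 against 14 cells).

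At 100 TPM, the shares of 7 of the genes, leaving Mmp8 aside, run from Lcn2, kept in the most cells, through Cd177, Ngp, Itgb2l, Camp and Ltf to Chi3l3. The place of Itgb2l depended on the threshold: at 1000 TPM 95 neutrophils had Camp without Itgb2l and 6 the reverse. That of Ngp and Cd177 did too. Ngp without Cd177 was seen in 13 cells at 100 TPM and 26 at 1000 TPM, and the reverse in 24 and 13. Above 0, Ltf without Camp was seen in 38 cells and the reverse in 21. The series was read from these same cells, so how well the cells follow it is a description. At 100 TPM, 250 of 286 neutrophils followed it without a gap, and so did 106 of the 142 that had some but not all of the 7. By plate these were 26 of 32, 28 of 34, 26 of 37 and 26 of 39 cells. The most frequent pattern was all 8 genes present, in 87 neutrophils. Then came 34 with all but Mmp8, 24 with Lcn2, Mmp8, Cd177 and Ngp, 18 with Lcn2 and Mmp8, and 16 with Lcn2, Mmp8 and Cd177. Another 14 had Mmp8 alone and 9 had none of the 8. The number of genes detected moved with these patterns: its median was 1944 in cells with all 8, 1479.5 in cells with Lcn2, Mmp8, Cd177 and Ngp, and 1320 in cells with none, and its part in the order was not tested.

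Cells that had lost Camp show what remained. In the 104 neutrophils with Camp listed at 0, Mmp8 was above 0 in 94, Lcn2 in 83, Ngp in 68 and Cd177 in 59. The median of Lcn2 was 3027 TPM in these cells and 24384 TPM in the others, and that of Ngp was 7.42 TPM against 53747 TPM. Ltf reached 100 TPM in 2 of the 104, and Chi3l3 in 2. In the 25 neutrophils with Lcn2 listed at 0, Mmp8 was above 0 in 21, Cd177 reached 100 TPM in 6, and none of Camp, Ngp, Ltf, Chi3l3 and Itgb2l reached 100 TPM.

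Mmp8 ran apart from the rest in a second way. After the cells with all 8 genes, the most frequent pattern was every gene except Mmp8 at 100 TPM or more, in 34 neutrophils spread over the plates (7, 9, 9 and 9 cells). In the 40 neutrophils with Mmp8 listed at 0, the median of Camp was 40965 TPM, against 1279 TPM in the others, and that of Chi3l3 was 14469 TPM against 0 TPM. Of these 40 cells, 16 had at least 5 of 16 proliferation genes above 0. Of the remaining 24 cells, 13 had Camp at 100 TPM or more.

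**Figure D3:**
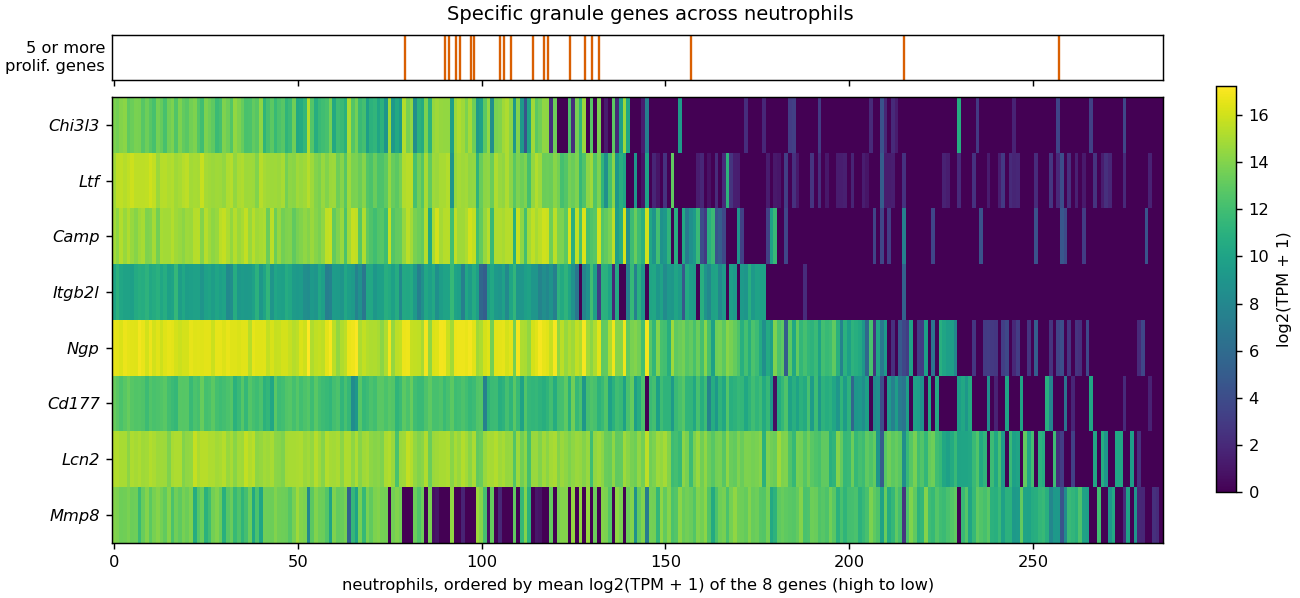
Level of the 8 genes, as log2(TPM + 1), in the 286 neutrophils (columns), ordered from high to low mean of the 8 genes. Rows run from the gene kept in the fewest cells (Chi3l3) to Lcn2, with Mmp8 below; the upper strip marks the 20 neutrophils with 5 or more proliferation genes, most of which sit where Mmp8 is dark and the other rows are bright.

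Within plates, 7 of the genes varied together from neutrophil to neutrophil. Mmp8 went in part with Cd177 and Itgb2l and little with the rest. Correlations are Spearman rho over the 64 to 78 neutrophils of a plate, given as the median of 4 plates. The cells of a plate share its library preparation and differ in depth, so they are descriptions without a test. Camp and Ngp had the highest rho, 0.90, followed by Ngp and Lcn2 at 0.87, Camp and Chi3l3 at 0.85, and Ngp and Chi3l3 at 0.84. The surface genes Cd177 and Itgb2l had a rho of 0.74 with each other, against 0.61 and 0.63 with Camp, and Cd177 had 0.74 with Lcn2 too. Over the 21 pairs without Mmp8 the median rho was 0.74. For Mmp8 with the other 7 genes it was 0.08, from −0.10 with Chi3l3 and −0.08 with Camp to 0.35 with Itgb2l and 0.43 with Cd177. Number of genes detected moved with the 8 genes: its rho with their mean was 0.66, 0.75, 0.72 and 0.69 in plates 1 to 4, and with Mmp8 alone it was 0.08 (median). With that number held constant (partial rho), the median was 0.55 for the 21 pairs and 0.03 for Mmp8. The partial rho of Mmp8 was 0.52 with Cd177, 0.39 with Itgb2l and −0.28 to 0.18 with the rest. Some of the 21 pairs were lower than the first 2 of these, such as Chi3l3 and Cd177 at 0.23. Without the 20 neutrophils with proliferation genes, the median for Mmp8 was 0.23.

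**Figure D4:**
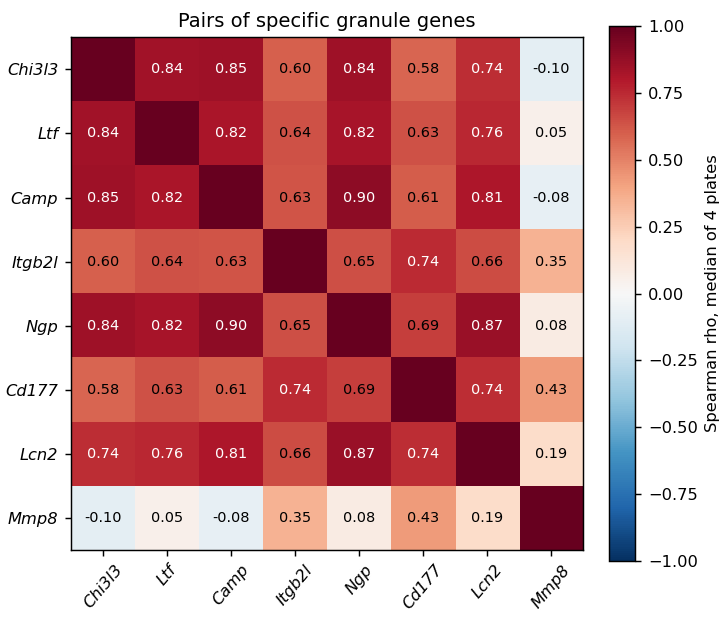
Spearman rho of TPM between each pair of genes over the neutrophils of a plate, as the median of 4 plates; red is positive and blue negative. Chi3l3, Ltf, Camp, Ngp and Lcn2 form a block at 0.74 to 0.90, Cd177 stands at 0.74 with both Itgb2l and Lcn2, and the Mmp8 row stays between −0.10 and 0.43.

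Other genes were ranked by rho with the mean log2(TPM + 1) of the 8, among the 2246 genes above 0 in at least 25% of neutrophils. Their median rho was 0.06, with 42 genes at 0.5 or more and 49 at −0.5 or less. The 10 highest were Ly6i (0.80), Ly6a (0.80), 9030619P08Rik (0.79), Anxa1 (0.79), Cybb (0.78), Ly6c1 (0.73), Ifitm6 (0.73), Dstn (0.72), Ly6f (0.72) and Adpgk (0.72). Anxa1 encodes annexin A1 and Cybb the membrane subunit of the NADPH oxidase, which is stored in specific granules. The Ly6 genes are near-identical surface protein genes among which reads can be shared, so which of them carried the signal is uncertain. The 10 lowest were Dusp1 (−0.77), Srgn (−0.76), Csf3r (−0.75), Ccl6 (−0.75), Il1b (−0.75), Ftl1 (−0.73), H2-D1 (−0.72), Sirpb1b (−0.69), Fxyd5 (−0.68) and Sfxn5 (−0.67). Csf3r is the receptor for the granulocyte growth factor G-CSF, Il1b and Ccl6 are secreted inflammatory mediators, and Srgn is the proteoglycan core of granules. By the rule that chose them, all 20 had the same sign in the 4 plates. With the TPM of other genes rescaled to the total without the 8, 97 genes reached 0.5 in size. With the number of genes detected held constant, 24 in place of 91 genes did.

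The other granule genes are given by list. Of 26 other specific or secretory granule genes, 17 were above 0 in enough neutrophils, with a median rho of 0.29 (0.22 as partial rho with the number of genes detected held constant). Cybb, Anxa1, Lyz2 (0.57), Lyz1 (0.56) and Ceacam1 (0.53) reached 0.5, while Hp, haptoglobin, had −0.14 and Slpi, a secreted protease inhibitor, −0.37. Of 16 genes of gelatinase granules and late maturation, 15 were measured, with a median of −0.21 (partial −0.12) and 5 at −0.5 or less. Among these, Mmp9, the gelatinase itself, had 0.07 and the chemokine receptor Cxcr2 −0.54. Only 3 of 14 azurophil genes were measured, since Mpo, Elane and most others were above 0 in fewer than 25% of neutrophils. Of 14 factors of granulocyte formation 4 were measured, with a median of 0.34 (partial 0.12). Ets1 had 0.59 (partial 0.25). Cebpe, the gene of C/EBP epsilon, had 0.39 but a partial rho of 0.03, and was above 0 in only 26.6% of neutrophils.

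Some of the genes were also set against Mmp8 alone. Mmp9 had a rho of 0.70 with Mmp8, Retnlg, a secreted resistin-like protein, 0.59, the formyl peptide receptor Fpr1 0.57, and Mmp25, a membrane-anchored protease, 0.49. All 4 belong to the gelatinase granule and late maturation list, but others on it were near 0, with Csf3r at −0.03, Ccl6 at 0.02 and Il1b at −0.12. Cybb and Anxa1 had 0.19 and 0.21 with Mmp8, and Adpgk, which followed the 8 genes, had 0.43. These values with Mmp8 were singled out after they were seen.

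**Figure D5:**
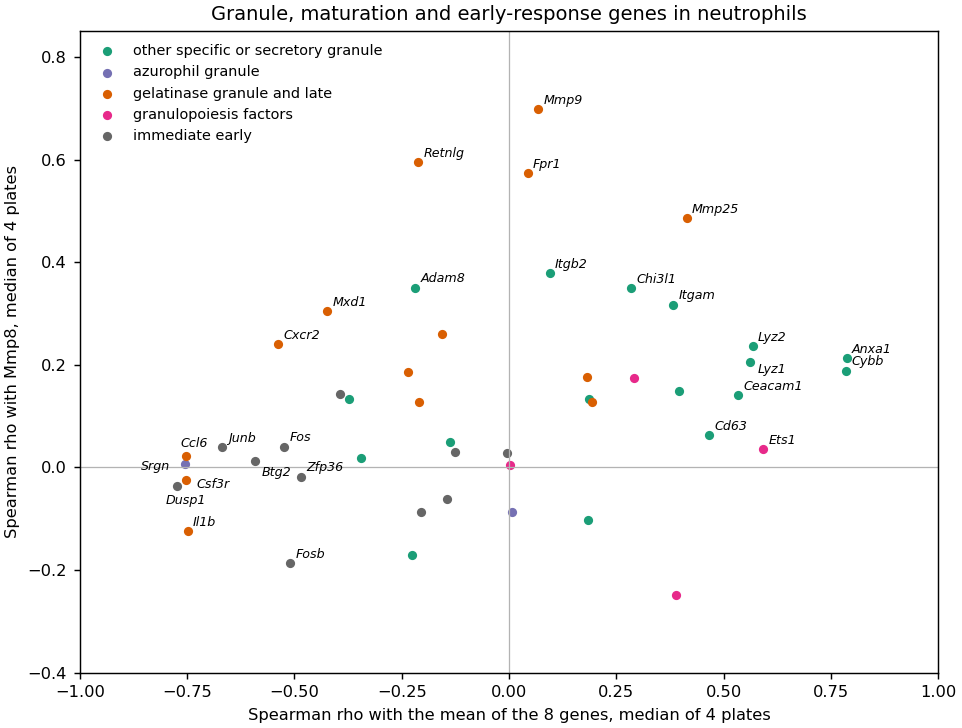
Points are listed genes above 0 in at least 25% of neutrophils (1 such gene is not shown), placed by its Spearman rho with the mean of the 8 genes (horizontal) and with Mmp8 (vertical), both as medians of 4 plates; colours are gene lists. Cybb and Anxa1 lie far right, Dusp1, Csf3r and Il1b far left near 0 on the vertical axis, and Mmp9, Retnlg and Fpr1 lie at the top near the middle.

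Compared with the other 40 cells, neutrophils had more of Lcn2, Mmp8 and Cd177, while Camp, Ngp, Ltf and Itgb2l were at or near 0 in the other cells. The comparison used mean TPM per class and replicate (n = 2 in each class) in limma, with replicate as a block, on 7498 genes. Of all genes tested, 5.09% were called higher and 20.4% lower in neutrophils at a Benjamini-Hochberg adjusted p of 0.05, and the median log2 difference of all genes was −0.82. Camp averaged 0.282 TPM in other cells of replicate 1 and was listed at 0 in those of replicate 2, against 14786 TPM and 12853 TPM in neutrophils. Itgb2l was listed at 0 in all 40 other cells, so no fold is given for it. Ngp averaged 1.43 TPM and 3.51 TPM in other cells, and Ltf 1.07 TPM and 0.504 TPM. These 4 genes met the filter on low values (a mean of at least 5 TPM and at least 10% of cells above 0) only through the neutrophils. They therefore had to differ, and their levels are a description without a test. Lcn2 averaged 71.7 TPM and 12.5 TPM in other cells, where 9 of 40 were above 0, and was higher in neutrophils by 9.05 on the log2(TPM + 1) scale (SE 0.71, adjusted p 0.00602).

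Mmp8 and Cd177 were lower in the other cells, where each was listed at 0 in 16 of 40. Mmp8 averaged 308 TPM and 238 TPM there, with a median of 2.04 TPM over the 40 cells, and differed by 4.67 (SE 0.20, adjusted p 4.64e-10). Cd177 averaged 169 TPM and 444 TPM, with a median of 48.5 TPM, and differed by 3.37 (SE 0.28, adjusted p 7.75e-06). The call of Chi3l3 depended on the settings. It averaged 1333 TPM and 3512 TPM in other cells, where it was above 0 in 23 of 40 and reached 14529 TPM, and the difference of 1.18 (SE 0.32) had an adjusted p of 0.0581. It passed with a pseudocount of 10 (adjusted p 2.86e-14) and with the class boundary at 1000 TPM (0.0117) or 50000 TPM (0.0426), and over all alternatives that gave a p the adjusted p ran from 2.86e-14 to 0.936. Chi3l3 is known in mouse as a product of monocytes and macrophages as well as of neutrophils, and 30 of the 40 other cells had at least 3 monocyte markers above 0. Of 21 other specific or secretory granule genes tested, 12 were higher in neutrophils, among them Hp and Anxa1, and 4 lower, namely Lyz2, Lyz1, Stom and B2m. Of these, Chi3l1 and Orm1 met the filter only through the neutrophils and Stom only through the other cells. Over all genes tested 5.09% were called higher and 20.4% lower, so the 4 lower genes are close to the general share. With the class boundary at 50000 TPM of S100a8 plus S100a9, which puts 22 neutrophils among the other cells, 2 of the 8 genes were called higher (Mmp8 and Chi3l3), and Lcn2 (adjusted p 0.336) and Cd177 (0.0901) were not. Without a filter on low values 0 genes passed in limma, with 2313 of 14135 at an unadjusted p under 0.05.

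A small group of neutrophils with proliferation genes differed from the rest in 4 of the 8 genes in limma, 3 higher and 1 lower. These calls depended on the settings, that of the lower gene, Mmp8, most of all, and none held without a filter on low values. Of 16 proliferation genes such as Mki67 and Top2a, at least 5 were above 0 in 20 neutrophils, 5 on each plate, and Mki67 itself in 17. This is a range of a count and not a cell type: 11 neutrophils had exactly 4 of the genes and 3 had exactly 5. The 8 genes held a median of 20.8% of the TPM in these 20 cells, against 4.59% in the other 266 neutrophils. A share of 20% or more was also seen in 53 of the 266. In the 20 cells the share ran from 0.067% to 26.7%, with 2 of them under 1%. Limma compared the means of these cells and of the other 266 neutrophils in each replicate (n = 2 in each class) over 6979 genes, of which 1.22% were called higher and 1.58% lower. The median log2 difference of all genes was 0.17.

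Camp, Chi3l3 and Ngp were higher in the neutrophils with proliferation genes than in all other neutrophils together. Camp averaged 40718 TPM and 40846 TPM in them and 12643 TPM and 10923 TPM in the other neutrophils, a difference of 1.79 on the log2(TPM + 1) scale (SE 0.11, adjusted p 0.00862). Chi3l3 averaged 17297 TPM and 20216 TPM against 3671 TPM and 4064 TPM, a difference of 2.28 (SE 0.13, adjusted p 0.00862). Ngp averaged 69720 TPM and 85146 TPM against 32917 TPM and 35257 TPM, a difference of 1.18 (SE 0.09, adjusted p 0.0104). For these 3 genes both replicates of 1 class lay above both of the other. That was also so for Ltf, Lcn2 and Itgb2l, so it does not set the called genes apart. Without a filter on low values none of Camp, Chi3l3 and Ngp passed (adjusted p 0.445). Ltf (0.74, adjusted p 0.0594), Lcn2 (0.39, adjusted p 0.101), Itgb2l (0.60, adjusted p 0.323) and Cd177 (0.01, adjusted p 0.981) did not pass.

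Mmp8 was lower in the neutrophils with proliferation genes. It averaged 1030 TPM and 64.1 TPM in them against 7143 TPM and 7587 TPM in the other neutrophils, a difference of −4.83 (SE 0.86, adjusted p 0.0493). It was listed at 0 in 16 of the 20 cells, and 1 cell at 10291 TPM made nearly all of the mean of replicate 1, where the other 9 cells averaged 0.897 TPM. That cell had 2.64% of its TPM on the 8 genes. The call lies close to the threshold and was lost with a pseudocount of 0.1 (adjusted p 0.101) or 10 (0.395), without the replicate block (0.105) and with averages per plate (0.182).

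The number of genes detected differed between these classes. The neutrophils with proliferation genes had a median of 2955.5 genes above 0 and the others 1554.5. Only 7 other neutrophils had at least 2427.5 genes above 0, of which 6 are in replicate 1 and 1 in replicate 2, so a comparison with them is given as values without a call. In replicate 1 these 6 cells averaged 46137 TPM of Camp, 102449 TPM of Ngp, 19220 TPM of Chi3l3 and 566 TPM of Mmp8. The 10 neutrophils with proliferation genes of that replicate averaged 40718 TPM, 69720 TPM, 17297 TPM and 1030 TPM. In replicate 1 the means of Camp, Ngp and Chi3l3 were thus lower in the neutrophils with proliferation genes than in the 6 cells. That of Mmp8 was higher only through the 1 cell at 10291 TPM, as the other 9 averaged 0.897 TPM. The limit of 2427.5 genes was not set on the neutrophils with proliferation genes. That cell had 1803 genes above 0 and another of replicate 1 had 2390, with Chi3l3 at 0 TPM and 5371 TPM. These means therefore do not compare cells matched in genes detected. The 1 cell of replicate 2 had 34928 TPM of Camp, 88421 TPM of Ngp, 2497 TPM of Chi3l3 and 11336 TPM of Mmp8. Since the number of genes detected moved with the 8 genes among neutrophils, these 7 cells were also picked toward high levels of them, and its part in the calls was not tested.

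Other granule classes differed too between the neutrophils with proliferation genes and the rest. Of 22 other specific or secretory granule genes tested, 1 was called higher (Fcnb) and 2 lower (Slpi and the protease gene Adam8). Fcnb, the pattern-recognition lectin ficolin B, averaged 2195 TPM and 1531 TPM against 117 TPM and 93.3 TPM. Of 11 azurophil genes tested, Elane and Ms4a3 were called higher and Srgn fell. Fcnb, Elane and Ms4a3 met the filter only through the neutrophils with proliferation genes, with 21, 0 and 7 of the other 266 cells above 0, so their calls carry no weight and their values are a description. Ms4a3 averaged 369 TPM and 209.8 TPM against 7.92 TPM and 13.8 TPM. Elane, neutrophil elastase, averaged 5178 TPM and 106 TPM and was listed at 0 in all other neutrophils, so its level differed widely between the replicates and no fold is given. It was above 0 in 5 of the 286 neutrophils, all among the 20, and Mpo was above 0 in 1. Of 15 gelatinase granule and late maturation genes, 0 rose and 7 fell, among them Mmp9, Cxcr2, Csf3r, Ccl6, Mxd1 and Il1b. Over all 6979 genes tested, 1.22% were called higher and 1.58% lower. The classes also differed in median number of genes detected (2955.5 against 1554.5), and its part in these calls was not tested. Mmp9 averaged 506 TPM and 108 TPM against 4337 TPM and 4384 TPM, a difference of −4.21 (SE 0.51, adjusted p 0.0236). None of 11 granulocyte formation factors passed. Cebpe averaged 216 TPM and 120 TPM against 30.7 TPM and 29.6 TPM (adjusted p 0.0748).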

How the data were processed

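Single cells prepared by SmartSeq2 were labelled as 1 genotype in 2 replicates of 2 plates each. The authors deposited TPM values, each a share of a fixed total per cell. RSEM and the mm10 build were used per the submitters' processing notes, while the sources used here do not give their versions, the aligner or the gene models. Depth is unknown, and shares of cells and their limits cover counting error only.

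The 8 genes, gene lists and tests were chosen with earlier results of these data known. Cells are not replicates. Mean TPM per class and replicate was tested as log2(TPM + 1) with limma 3.58.1 (R 4.3.3; trend, robust, replicate block, 1 residual degree of freedom per gene, Benjamini-Hochberg) on genes with mean TPM of at least 5 and above 0 in at least 10% of cells in either class. The script was tested on simulated data. S100a8 and S100a9, and the proliferation genes, defined classes and were not tested there. All else is description, computed with pandas 2.3.3 and scipy 1.17.1. No doublet caller was run. The text names the 8 genes, the 10 highest and 10 lowest in rho among those with the same sign in 4 plates, and genes of the lists, of which 1 is not reported here. Marker lists of B cells, T and NK cells, border macrophages, erythroid cells, oligodendrocytes, and eosinophils, basophils and mast cells were also read. At least 3 genes of such a list were above 0 in 2, 0, 0, 0, 0 and 0 neutrophils. Alternatives covered the pseudocount, filter, block, class limits, averaging, the ribosomal RNA gene Rn45s, and each replicate left out.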

Additional observations from a re-analysis of the deposited data

How the results depend on the processing

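The mean share of TPM (9.43%) became 10.05% with the neutrophil limit at 50000 TPM, 9.81% without Rn45s and 8.78% without the neutrophils with proliferation genes, and was 9.26% to 9.60% with a replicate left out. The median rho of the 28 pairs (0.652) was 0.669 with the limit at 1000 TPM, 0.616 at 50000 TPM, 0.666 without the neutrophils with proliferation genes, 0.666 with at least 1000 genes detected, 0.639 as Pearson's r of log values, 0.461 as partial rho, and 0.652 to 0.669 with a replicate left out. For the 21 pairs without Mmp8 (0.741) it was 0.546 as partial rho and 0.7005 to 0.748 with a replicate left out. For Mmp8 with the other 7 genes (0.083) these settings gave 0.112, 0.028, 0.231, 0.062, 0.070 and 0.026, and 0.077 to 0.083 with a replicate left out. The 91 genes at 0.5 in size became 24 as partial rho, and were 82 to 110 with a replicate left out. The pairs of genes with 1 order in every plate numbered 22 to 27 over all thresholds tried, of which the one relative to a gene's own 90th percentile was added after seeing the data.

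For neutrophils against other cells (1909 genes, 7 of the 8 higher, 4 of which met the filter only through neutrophils), no filter gave 0 genes and 0 of the 8, averages of log values 3271 genes with Chi3l3 reversed to −0.057, and the limit at 50000 TPM 2 of the 8. The smallest adjusted p without the filter was 0.121. Dropping the replicate block gave 1401 genes and kept the count at 7 of the 8. For neutrophils with proliferation genes against the rest (195 genes, 3 higher and 1 lower of the 8), the pseudocount of 0.1 gave 35 genes and 0 lower, and that of 10 gave 795 genes and 0 lower. No filter gave 0 genes, 0 higher and 0 lower, with 1440 at an unadjusted p under 0.05. Without the replicate block 196 genes passed, with 0 of the 8 lower. Averages per plate gave 742 genes, 5 higher and 0 lower, with Cd177 at −0.025, and averages of log values 1797 genes and 7 higher. A minimum of 3 proliferation genes gave 5 higher, and of 8 gave 296 genes and 5 higher. Another setting used the 7 other neutrophils with at least 2427.5 genes detected, where replicate 2 rests on 1 cell and replicate 1 on 6. The limit was not set on the 20 neutrophils with proliferation genes, whose lowest number was 1687, so the classes were not matched. There 536 genes passed, with 0 higher and 3 lower of the 8, and no call is drawn from it. The fitted sign was the opposite there for Ngp (−0.30), Ltf (−0.59), Lcn2 (−0.58), Cd177 (−0.076) and Itgb2l (−0.068). With a replicate left out, Cd177 was −0.031 without replicate 2 and 0.048 without replicate 1. With 1 replicate left out no test could be made, since no residual degrees of freedom remain, and only folds were computed. The causes of these changes were not tested. No paired analysis across groups was possible because there is 1 group.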

Other observations

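Immediate early genes, which cells switch on within minutes of a stimulus, ran against the mean of the 8 specific granule genes in neutrophils. Of 18 listed, 11 were above 0 in at least 25% of neutrophils, and all 11 had a negative rho with the mean of the 8 genes, with a median of −0.48 against 0.06 over all 2246 genes, of which 872 were negative. Junb (−0.67) and Btg2 (−0.59) followed Dusp1, and Ier3 was nearest 0 at −0.01. These are medians of 4 plates, and Ier2, Ier3 and Klf6 had a positive rho in single plates. With the number of genes detected held constant the median was −0.24. With Mmp8 alone the rho of the 11 genes ran only from −0.19 (Fosb) to 0.14 (Fosl2). In the neutrophils with proliferation genes, 6 of 16 tested genes of this list were lower in limma (Fos, Junb, Atf3, Dusp1, Btg2 and Zfp36) and 0 were higher, against 1.58% of all genes tested called lower and 1.22% higher. Atf3 was above 0 in none of these 20 cells and met the filter only through the other neutrophils.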
